A study of Mus musculus with 9 samples.

Results

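The granins and the prohormone-processing genes were followed through all 9 libraries of a total RNA sequencing study of newborn mouse epidermis. The genes were Chga, Chgb, Scg2, Scg3, Scg5, Vgf, Pcsk1, Pcsk2, Pcsk1n and Cpe, found by matching Ensembl identifiers to these symbols, and all 10 were present among the 49672 rows of the deposited gene table. Epidermal cells were sorted from mice carrying a Sox2-GFP reporter at P0, the day of birth (postnatal day 0), and every group shared that strain, tissue and age. The groups were 3 libraries of GFP-positive cells, which the labels call Merkel cells, 3 first libraries of GFP-negative cells positive for both SCA1 and CD49F, labelled basal keratinocytes, and 3 second libraries of the same sort. The reporter follows Sox2, so the GFP-positive fraction holds any epidermal cell with an active Sox2 reporter. The titles number the samples 1 to 3, each with 1 Merkel, 1 first basal and 1 second basal library. What sets the second basal libraries apart from the first is not in the labels, nor is the source of a sample number (1 animal or several), so the p-values measure only how far the 3 numbers spread, and that spread may be technical in part.

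Granins are acidic proteins that gather in the trans-Golgi network, help to form dense-core vesicles and are themselves cut into peptides. Inside those vesicles the convertases encoded by Pcsk1 and Pcsk2 cut prohormones after pairs of basic residues, and carboxypeptidase E, encoded by Cpe, trims the basic residues left behind. Merkel cells are the touch receptor cells of the skin and have long been recognised by their dense-core granules.

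Of the 10 genes, 7 reached the level needed for testing and all 7 were higher in Merkel cells: Chga, Chgb, Scg3, Scg5, Pcsk1, Pcsk2 and Cpe. Vgf, Scg2 and Pcsk1n stayed under that level, with Merkel means of 0.993, 0.233 and 0.127 TPM (a length-scaled transcript abundance that sums to the same total in each library). A gene was called when limma on log2(TPM + 1) gave it an adjusted p below 0.05 and its log2 fold change was at least 1 in size. Of the 13822 tested genes 6.79% were called higher and 5.27% lower. A gene was tested if it reached 1 TPM in at least 3 of 6 values (3 Merkel libraries and, for each sample number, the average of its 2 basal libraries). Genes near 0 in basal keratinocytes could pass only through their Merkel level, which nearly fixes their call. Of the 7, only Pcsk2 and Cpe passed on their basal values as well. In each of the 10 genes every Merkel library lay above every basal library, as did 9.55% of the 28451 genes above 0 in any library.

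The sorted fractions matched their labels in part. Sox2 was at 44.89 to 53.11 TPM in Merkel libraries and at 0.16 or less in basal ones, and the EGFP transcript was at 178.26 to 246.80, against 1.73 to 3.72 in the first and 13.43 to 18.29 in the second basal libraries. All 6 Merkel cell markers were higher in Merkel libraries (summed 755.88 to 1015.6 TPM against 2.25 to 5.53 in basal libraries) and all 5 basal keratinocyte markers were lower, yet the latter still summed to 4444 to 4976 TPM in Merkel libraries, against 12623 to 17163 in basal ones. Fibroblast markers summed to 71.0 to 91.0 TPM in Merkel libraries, against 2.84 to 11.15 in the basal ones, and all 4 tested of 6 were higher. Melanocyte markers were higher in 5 of 6 genes (150.36 to 210.81 TPM in sum, against 15.84 to 34.34 in the first and 104.57 to 151.58 in the second basal libraries), Schwann cell markers in 1 of 5 tested and endothelial markers in 0 of 1, while immune markers, 3 of 5 lower, summed to 873 to 1119 TPM in the first basal libraries against 51.0 to 252.5 in the second and 61.9 to 146 in Merkel libraries. Against the second basal libraries alone, none of these 5 melanocyte and 3 immune calls held. All 4 fibroblast calls did hold there, the smallest log2 fold change being 1.45 for Col1a1. The Schwann cell call, S100b, held as well, at 1.06. The part of such cells in the granin values was not tested. In bulk samples fewer cells of a type and less RNA per cell cannot be told apart. Of 7 sensory neuron markers 1 was tested and higher, Tubb3, and the list summed to 44.05 to 69.87 TPM in Merkel libraries against 1.37 to 2.44 in basal ones. The defining neuronal transcripts were near 0: Nefl, Nefm and Prph were at 0.15 TPM or less in each library and Scn10a was listed at 0 in the Merkel libraries.

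The promoters of these genes were searched to describe what their sequences share, and a link to the transcript levels was not tested. Promoters of 8 of the 10 genes (250 bases before and 50 after the start site, RefSeq, GRCm38.p6) could be read, those of Vgf and Cpe not. The cyclic AMP response element, the palindrome TGACGTCA bound by CREB-family factors, occurred in 3 of the 8, in Chgb, Scg2 and Pcsk1, against 1.79% of all 32851 promoters of the same length. It began 72, 68 and 78 bases upstream of the RefSeq start site in these genes. These distances hold for that start only, because the GENCODE annotation used for the gene positions places the starts elsewhere. There Chgb starts at 132781278, before its whole promoter stretch, and Scg2 at 79440120, within its stretch. The shorter TGACG, which lies within the palindrome on both strands, occurred on either strand in 7 of 8 promoters, against 20.8% of all promoters, and Pcsk1n was the one without it. Of the other words searched on both strands, TATAAA was in 1 of 8 (13.6% of all), CCAAT in 2 (37.4%) and CANNTG in 6 (72.3%). The promoters of the 3 genes with the palindrome, of Chga with the shorter word 44 bases upstream and of Pcsk1n without it follow, to show where the word lies, with TGACG or TGACGTCA in capitals, read 5′ to 3′ on the strand of the gene. They lie at chr12:102554691-102554990 (plus strand), chr2:132781392-132781691 (plus), chr1:79439977-79440276 (minus), chr13:75089607-75089906 (plus) and chrX:7919572-7919871 (plus).
Chga: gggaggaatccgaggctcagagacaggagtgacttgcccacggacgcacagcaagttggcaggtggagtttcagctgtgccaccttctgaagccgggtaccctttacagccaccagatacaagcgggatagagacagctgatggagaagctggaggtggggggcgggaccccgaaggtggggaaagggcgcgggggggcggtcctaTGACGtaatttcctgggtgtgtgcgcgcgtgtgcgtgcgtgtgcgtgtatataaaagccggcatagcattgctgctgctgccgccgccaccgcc
Chgb: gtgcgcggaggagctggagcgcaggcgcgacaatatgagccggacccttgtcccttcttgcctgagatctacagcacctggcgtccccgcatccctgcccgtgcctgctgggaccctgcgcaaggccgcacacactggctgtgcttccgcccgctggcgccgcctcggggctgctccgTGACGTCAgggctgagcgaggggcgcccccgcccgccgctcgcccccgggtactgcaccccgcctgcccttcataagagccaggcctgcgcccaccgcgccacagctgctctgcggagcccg
Scg2: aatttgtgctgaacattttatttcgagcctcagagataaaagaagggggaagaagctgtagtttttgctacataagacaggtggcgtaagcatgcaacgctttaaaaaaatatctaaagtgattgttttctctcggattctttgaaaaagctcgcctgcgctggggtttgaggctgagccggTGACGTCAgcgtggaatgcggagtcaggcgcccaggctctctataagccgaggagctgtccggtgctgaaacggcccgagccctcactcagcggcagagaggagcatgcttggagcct
Pcsk1: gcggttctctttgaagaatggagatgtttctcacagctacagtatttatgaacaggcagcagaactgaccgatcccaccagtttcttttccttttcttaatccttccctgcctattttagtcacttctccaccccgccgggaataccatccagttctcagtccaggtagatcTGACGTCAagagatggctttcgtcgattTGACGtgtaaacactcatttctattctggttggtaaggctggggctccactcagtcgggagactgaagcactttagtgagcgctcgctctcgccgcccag
Pcsk1n: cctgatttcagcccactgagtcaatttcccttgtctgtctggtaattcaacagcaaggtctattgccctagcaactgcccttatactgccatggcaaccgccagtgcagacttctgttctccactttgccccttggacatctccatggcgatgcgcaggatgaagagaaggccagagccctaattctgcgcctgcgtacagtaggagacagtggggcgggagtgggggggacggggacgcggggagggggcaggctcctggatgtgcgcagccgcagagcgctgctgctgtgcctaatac
Among these 5 genes Scg2, with the palindrome, and Pcsk1n, without the word, had the lowest Merkel levels, and Chga, with TGACG alone, the highest. A match describes the letters only.

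Chromogranin A, encoded by Chga (ENSMUSG00000021194.5, chromosome 12 from 102554969 to 102565028, mm10), is the classical granin of endocrine cells. It was at 67.82, 42.06 and 59.39 TPM in Merkel replicates 1, 2 and 3. In the first basal libraries it was at 0.26, 0.04 and 0.14 TPM, and in the second at 0.05, 0.05 and 0.09. No basal library came near the lowest Merkel library, and the log2 fold change was 5.68 ± 0.18 (SE, n = 3 against 3, limma adjusted p = 1.41e-07), the 12th largest of all tested genes. Its sister gene Chgb, which encodes chromogranin B (chromosome 2 from 132781278 to 132795079), was at 35.32, 19.99 and 29.05 TPM in Merkel libraries. Its basal values were 0.11, 0.00 and 0.11 TPM in the first and 0.18, 0.03 and 0.10 in the second libraries, and its log2 fold change was 4.71 ± 0.20 (limma adjusted p = 5.03e-07). Within each Merkel library Chga stood 1.92 to 2.10 times above Chgb in TPM, a narrow range although both genes varied between libraries.

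Scg3, whose product anchors chromogranin A aggregates to the vesicle membrane, was at 12.65, 9.17 and 11.29 TPM in Merkel libraries (chromosome 9 from 75643189 to 75684056). In the basal libraries it did not exceed 0.06 TPM and was listed at 0 in 2 of 6. Its log2 fold change was 3.54 ± 0.14 (limma adjusted p = 4.36e-07). The annotated gene Gm37871, on the opposite strand within Scg3, was at 0.09 TPM or less in each library.

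Vgf and Scg2 were scarce. Vgf, a nerve growth factor-induced peptide precursor (chromosome 5 from 137026392 to 137033351), was at 1.09, 0.63 and 1.26 TPM in Merkel libraries and at 0.10 TPM or less in basal libraries. With no filter on low values its log2 fold change was 0.91 ± 0.13 (limma adjusted p = 0.0046), short of the fold limit. In that unfiltered fit 8.67% of 28451 genes were higher at an adjusted p below 0.05, and 3.39% also passed the fold limit. Once small, structural and mitochondrial RNA genes were removed and the rest rescaled, the log2 fold change of Vgf was 1.37 (limma adjusted p = 0.00049), past that limit. Rescaling raised its Merkel values to 2.01, 1.35 and 2.21 TPM while the pseudocount stayed at 1, so the scale of the fold change differs. Scg2, the secretogranin II gene and source of secretoneurin (chromosome 1 from 79434669 to 79440120), was at 0.15, 0.19 and 0.36 TPM in Merkel libraries and listed at 0 in 5 of 6 basal libraries. With no filter it had a log2 fold change of 0.29 ± 0.06 (limma adjusted p = 0.020), a difference of a fraction of 1 TPM. At such levels the number of reads behind a value may be small, and TPM does not give it.

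**Figure D1:**
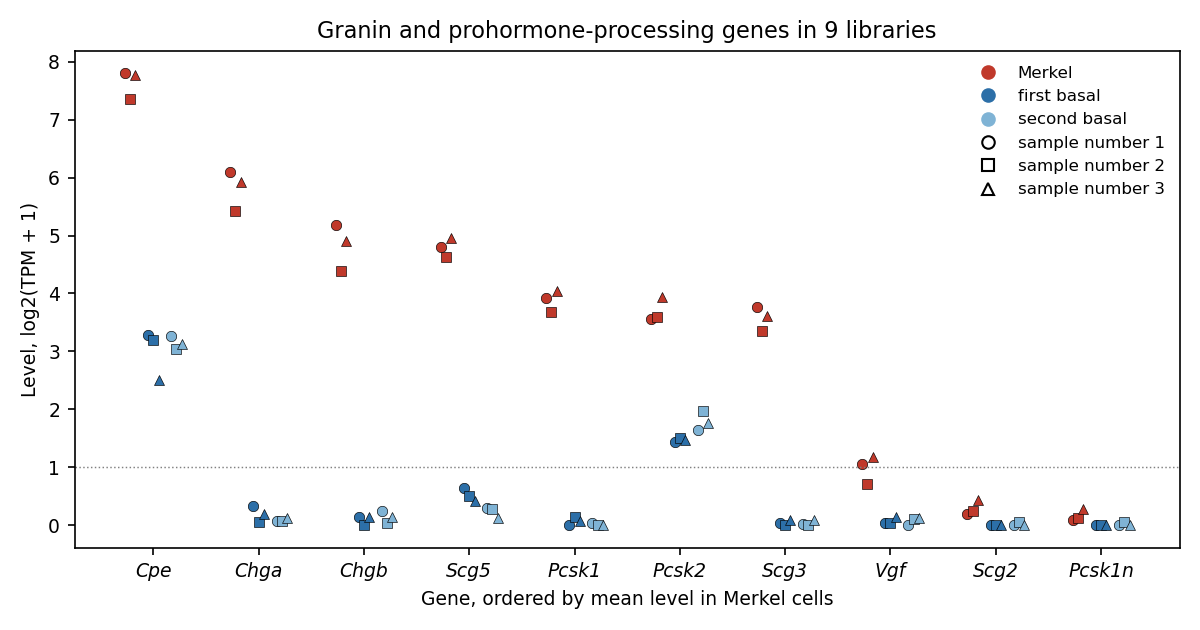
Level of each gene in each library as log2(TPM + 1), with genes ordered by their mean in Merkel cells, colours for the 3 groups, symbols for the sample numbers and the dotted line at 1 TPM. Every red point lies above every blue point of its gene. Cpe and Pcsk2 are the genes with basal values above the line, and Vgf, Scg2 and Pcsk1n lie near or under it in all groups.

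The convertases differed in their levels in the basal libraries, and which cells of these libraries held the transcripts was not tested. Pcsk1, prohormone convertase 1/3 (chromosome 13 from 75089826 to 75134861), was at 14.21, 11.80 and 15.45 TPM in Merkel libraries. It was at 0.00, 0.11 and 0.05 TPM in the first basal libraries and at 0.03, 0.00 and 0.00 in the second, and its log2 fold change was 3.84 ± 0.14 (limma adjusted p = 2.29e-07). Pcsk2, prohormone convertase 2 (chromosome 2 from 143546156 to 143816285), was nearly as abundant in Merkel libraries, at 10.78, 11.03 and 14.33 TPM. Unlike Pcsk1 it was present throughout the basal libraries, at 1.70, 1.84 and 1.76 TPM in the first and 2.13, 2.93 and 2.38 in the second. Its mean TPM was 5.67 times higher in Merkel cells, with a log2 fold change of 2.06 ± 0.15 (limma adjusted p = 1.16e-05), the smallest of the 7. The ratio of Pcsk1 to Pcsk2 was 1.32, 1.07 and 1.08 in the Merkel libraries and at most 0.06 in the basal libraries. Of 2 annotated antisense genes within Pcsk2, Pcsk2os1 was at 0.50 to 0.90 TPM in Merkel libraries, with basal libraries between 0.05 and 0.33. Pcsk2os2 did not exceed 0.08 TPM. Whether the quantification used strand is unknown.

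The partners of the convertases were at unlike levels. Scg5 encodes 7B2, the chaperone and inhibitor that Pcsk2 needs to mature (chromosome 2 from 113776362 to 113829121). It was at 26.74, 23.84 and 30.07 TPM in Merkel libraries, at 0.57, 0.42 and 0.33 in the first basal libraries and at 0.23, 0.22 and 0.09 in the second, with a log2 fold change of 4.42 ± 0.14 (limma adjusted p = 1.35e-07). Scg5 exceeded Pcsk2 by 2.10 to 2.48 times in Merkel libraries, whereas in basal libraries it was at 0.04 to 0.34 times the TPM of Pcsk2. Pcsk1n encodes proSAAS, the inhibitor of prohormone convertase 1/3 (chromosome X from 7919822 to 7924410). It was at 0.07, 0.09 and 0.22 TPM in Merkel libraries and listed at 0 in 5 of 6 basal libraries. With no filter its log2 fold change was 0.16 ± 0.05 (limma adjusted p = 0.068). Merkel libraries held transcripts of both convertases and of 7B2, with proSAAS transcripts at the lowest level of the 10. Eras, which overlaps Pcsk1n on the opposite strand, was listed at 0 in each Merkel library.

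Cpe (chromosome 8 from 64592542 to 64693054) was the most abundant of the 10 in each library. It was at 221.70, 162.76 and 216.46 TPM in Merkel libraries, at 8.69, 8.21 and 4.70 in the first basal libraries and at 8.63, 7.27 and 7.72 in the second. The groups did not overlap, the mean TPM was 26.6 times higher in Merkel cells, and the log2 fold change was 4.57 ± 0.17 (limma adjusted p = 2.49e-07). Its Merkel mean of 200.3 ± 32.6 TPM (SD, n = 3) placed it 313th among 21734 protein-coding genes, and its basal mean 8015th.

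**Figure D2:**
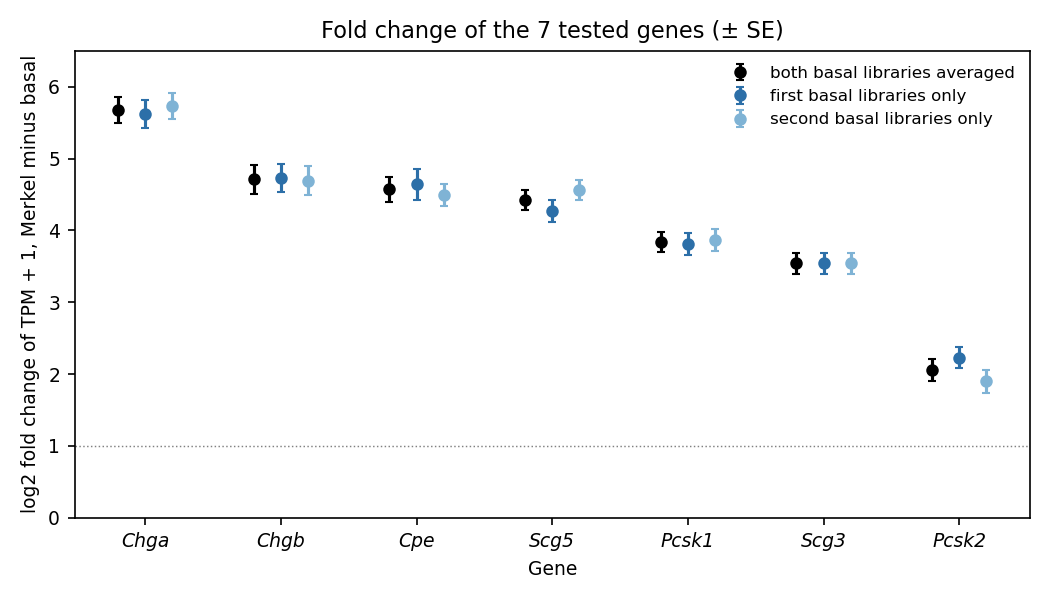
Log2 fold change of TPM + 1 (Merkel minus basal, points, with SE as bars) for the 7 tested genes, against both basal libraries averaged, the first only or the second only; the dotted line is the fold limit of 1. The 3 estimates of a gene share the Merkel libraries; Pcsk2 has 2.23 against the first and 1.90 against the second basal libraries.

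Because TPM is scaled by length, levels can be ordered within the Merkel libraries. The 10 genes summed to 390.5, 281.6 and 377.9 TPM in Merkel replicates 1, 2 and 3, of which Cpe took 56.8% to 57.8%, Chga 14.9% to 17.4% and Scg5 6.85% to 8.47%. Cpe was above Chga, and Chga above all others, in each of the 3 libraries without overlap. Chgb (mean 28.1 TPM) and Scg5 (26.9 TPM) overlapped, Chgb being above Scg5 in 1 of 3 libraries. Pcsk1 (13.8 TPM), Pcsk2 (12.0 TPM) and Scg3 (11.0 TPM) formed a further overlapping run, although Pcsk1 exceeded Pcsk2 in 3 of 3 libraries. Vgf, Scg2 and Pcsk1n followed in that order in each library. In basal libraries the sum was 7.25 to 11.39 TPM, with 64.8% to 77.1% from Cpe and 14.9% to 27.5% from Pcsk2.

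Merkel replicate 2 had the lowest value in 7 of the 10 genes, the exceptions being Pcsk2, Scg2 and Pcsk1n, which were lowest in replicate 1. Genes at large were lower there. Among genes at 1 TPM or more in every library, the median ratio to the geometric mean of the 9 libraries was 0.818 in replicate 2. It was 0.948 and 0.988 in replicates 1 and 3. Small and structural RNAs took 51.64% of TPM in replicate 2, against 43.35% and 40.76% in replicates 1 and 3. With these and the mitochondrial genes removed and the rest rescaled, the coefficient of variation over the 3 Merkel libraries became smaller in all 10 genes. That of Pcsk1 went from 13.4% to 3.44%, of Scg5 from 11.6% to 3.48% and of Cpe from 16.3% to 7.79%. The share of all genes with a smaller coefficient after rescaling was not counted, so this is not a trait of the 10. Chgb kept the widest spread of the 7 tested genes, 27.4% as deposited and 21.2% after rescaling, and remained lowest in replicate 2.

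The first and second basal libraries were compared to see whether these genes vary within the control group. Of the 10 genes, Cpe and Pcsk2 could be tested, and 0 were called by limma, with 1 (Pcsk2) at an unadjusted p under 0.05. Of 13477 tested genes 4.35% were called in either direction and 21.3% had an unadjusted p under 0.05. Each second library had more Pcsk2 than any first library, by a mean of 0.32 ± 0.14 on the log2 scale (limma adjusted p = 0.234). Every second library also lay above every first library in 11.8% of genes above 0 in any basal library. Scg5 showed the opposite order, with every second library under every first library (7.69% of genes did so), but all its basal values were under 1 TPM and its log2 difference with no filter was -0.29 ± 0.09 (limma adjusted p = 0.176). For Cpe the difference was 0.15 ± 0.21 (limma adjusted p = 0.757) and the order depended on the low first library of number 3 (4.70 TPM), without which it turned to -0.09. Melanocyte and immune markers moved between the same libraries: Dct was at 5.54 to 14.71 TPM in the first and 47.00 to 68.29 in the second, and Ptprc at 21.48 to 56.86 and 1.84 to 3.86. Their part in the Pcsk2 and Scg5 values was not tested.

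**Figure D3:**
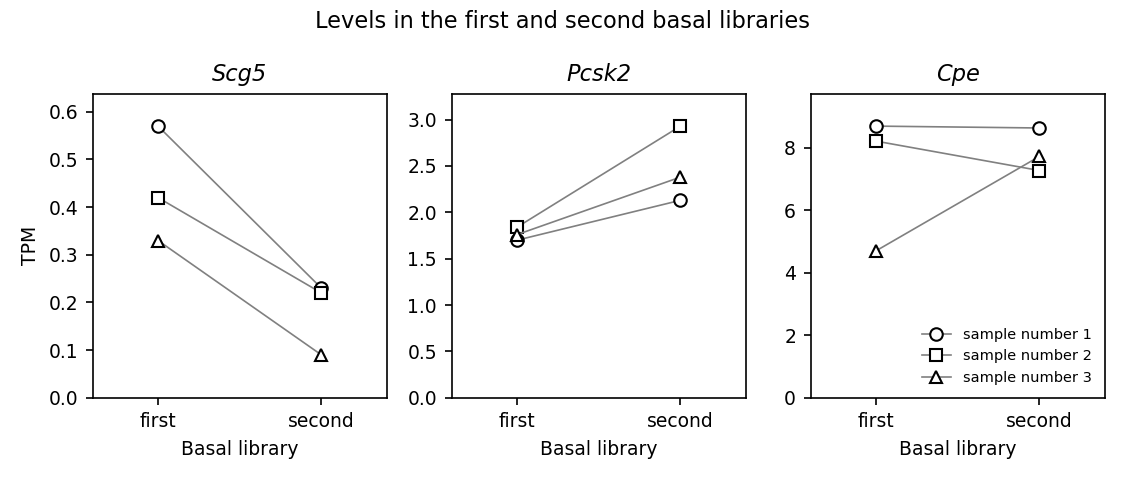
TPM of Scg5, Pcsk2 and Cpe in the first and second basal library of each sample number, joined by lines, each panel with its own axis from 0. Scg5 goes down and Pcsk2 up in each of the 3 numbers, and Cpe has no common direction.

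Other genes of the pathway, from lists chosen with earlier results of these data known, included called and uncalled genes, to be read beside the 6.79% called higher and 5.27% called lower over all tested genes. Of 7 other proprotein convertases 4 were tested and 0 called by limma, and their median log2 fold change was -0.29, against -0.15 over all tested genes. Pcsk7, at -0.60 ± 0.14 (limma adjusted p = 0.0096), missed only the fold limit. An unadjusted p under 0.05 was found for 3 of the 4 (Pcsk7, Mbtps1 and Pcsk6, the last with a positive sign) and for 49.6% of all tested genes. Furin, the convertase of the constitutive secretory route, was at 26.6 ± 6.49 TPM in Merkel and 33.0 ± 8.35 in basal libraries (SD, n = 3; log2 fold change -0.29 ± 0.22, limma adjusted p = 0.34). In the family of Cpe 2 of 5 tested genes (7 listed) were higher, Cpxm1 (1.18) and Aebp1 (1.04), and 1 was lower, Cpxm2 (-1.06). These calls depended on the basal set: Aebp1 averaged 3.82 TPM in Merkel, 0.633 in first basal and 2.36 in second basal libraries, and was itself called higher in the second than the first (1.05, limma adjusted p = 0.0143). Cpxm1 averaged 7.74, 1.84 and 4.21 TPM in the same order. Against the second basal libraries alone neither was called (Aebp1 0.52 ± 0.16, Cpxm1 0.75 ± 0.20, both short of the fold limit), and Cpxm2 was not called against the first alone (-0.84 ± 0.15). Fibroblast and melanocyte marker sums also differed between the basal sets, and their part was not tested. The fibroblast sum differed mainly through Col1a2, which averaged 2.25 TPM in the first and 7.99 in the second basal libraries. Col3a1 did not follow, at 1.02 and 0.91 TPM, nor did Col1a1, at 0.247 and 0.240. Cpd, carboxypeptidase D of the Golgi, was at -0.60 ± 0.12 and short of the fold limit. Of 4 genes for other steps of peptide maturation, Pam, which adds the C-terminal amide of many peptides, was higher, at 134.78, 99.61 and 123.59 TPM in Merkel libraries, with basal libraries between 34.18 and 41.58 TPM. Its log2 fold change was 1.64 ± 0.13 (limma adjusted p = 2.7e-05). Qpct, Qpctl and Ctsl were not called. Qpct, at 0.84 ± 0.17 (limma adjusted p = 0.0042), missed only the fold limit. It was called against the first basal libraries alone (1.30 ± 0.19) but not against the second alone (0.38 ± 0.17).

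Of 30 genes for dense-core vesicle formation and release, 20 were tested, 9 were higher and 0 lower, with a median of 0.54. Of these 9, 7 were under 1 TPM in every basal library and so could be tested only through their Merkel level; Sytl2 and Ica1 were not. The 3 with the smallest adjusted p were the small GTPase genes Rab3b (log2 fold change 5.02) and Rab3c (3.90) and Hid1 (3.81), which acts in vesicle maturation at the trans-Golgi network. Rab27a and Rab27b, GTPases that dock secretory vesicles, were at -0.86 and -0.60, short of the fold limit. Of 23 peptide and hormone precursors 9 were tested and 8 were higher (median 1.78), and Nmb, which encodes neuromedin B, was not called. Those with the smallest adjusted p were Cck, the cholecystokinin gene, at 153.55, 169.71 and 207.21 TPM in Merkel libraries, Penk (log2 fold change 2.49) and Calcb (2.85), which encode proenkephalin and a calcitonin gene-related peptide. Of the 8, 6 were under 1 TPM in every basal library, Penk and Npy being the others. Npy, the neuropeptide Y gene, was at 5.61, 3.00 and 4.42 TPM in Merkel libraries, at 0.15, 0.38 and 0.32 in the first basal and 3.86, 3.56 and 2.82 in the second basal libraries. Its Merkel and second basal values overlapped, the call was lost against the second libraries alone (0.25 ± 0.20, limma adjusted p = 0.347), and it was called higher in the second than the first (1.78, limma adjusted p = 0.00298). The summed precursors were at 370 to 438 TPM in Merkel libraries, beside 282 to 391 TPM for the granins and processing genes. Of 16 regulators 9 were tested and 4 were higher: Isl1 (5.25), Insm1 (5.13), Myt1 (4.26) and Prox1 (3.45), all under 1 TPM in every basal library. Rest, a repressor of neuronal and neuroendocrine genes known to act on granin promoters, was at 16.31, 11.82 and 13.66 TPM in Merkel libraries, with basal libraries between 16.81 and 30.32 TPM and a log2 fold change of -0.74 ± 0.17 (limma adjusted p = 0.0077), short of the fold limit. Creb1, which binds the cyclic AMP response element, was at -0.42 ± 0.13 (limma adjusted p = 0.033), short of the fold limit. The listed genes of the same family did not share 1 direction. Atf1 was at -0.56 ± 0.19 (limma adjusted p = 0.0385) and Crem at 0.33 ± 0.13 (limma adjusted p = 0.0748).

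**Figure D4:**
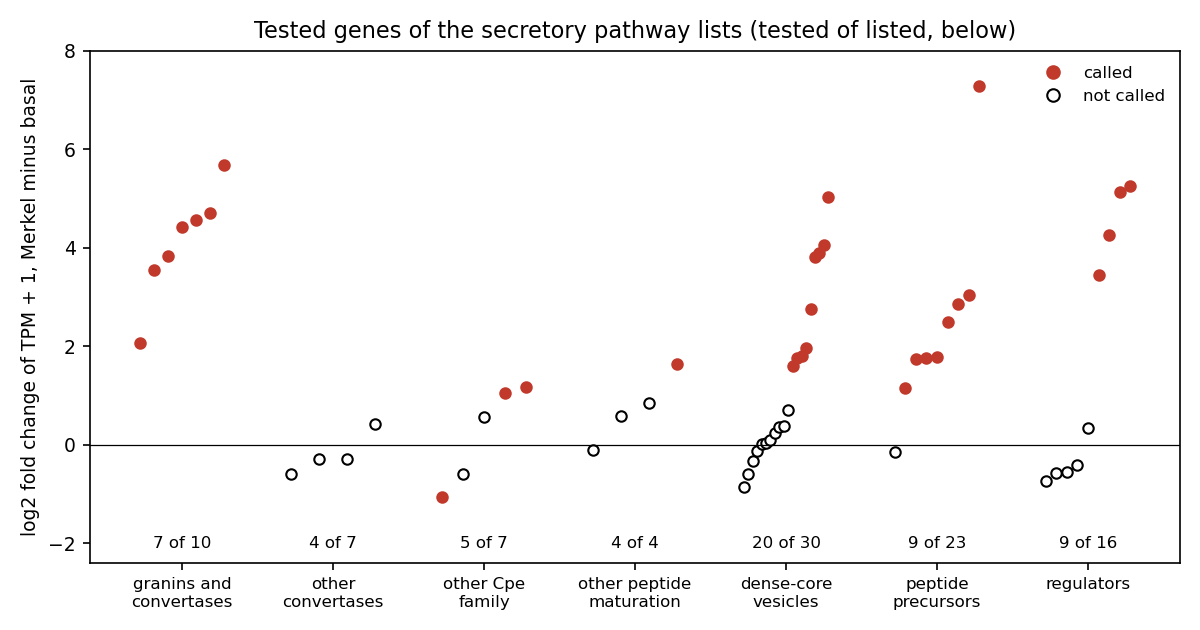
Log2 fold change of TPM + 1 (Merkel minus basal) of each tested gene in 7 lists, red where called and open where not, with the number tested of those listed under each. All 7 tested granin and processing genes lie at 2.06 or more, and the 4 other tested convertases between -0.60 and 0.41. These 2 lists are not alike in how they were tested. Of the 7, 5 were under 1 TPM in every basal library and could be tested only through their Merkel level. The 4 were above 1 TPM in every basal library.

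The genes whose pattern over the 9 libraries was most like that of Chga, by Pearson correlation of log2(TPM + 1) among 7398 genes of 10 TPM or more in a group mean, were Lhx3, Tlx3, Prrxl1, Kcna4 and Slc35d3 (r = 0.9993 to 0.9997). For Cpe they were Tmem229a, Nhlh1, Rbm24, Uchl1 and Dach2 (r = 0.9958 to 0.9966). The points share 2 cell types and 3 sample numbers, and no p is given.

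The size of the fold changes depended on the scale. With a pseudocount of 0.1 in place of 1 the log2 fold change of genes near 0 in basal cells was larger, 8.17 for Chga and 6.77 for Pcsk1, while that of Pcsk2 was 2.46. Scaling by median ratios moved the median of all tested genes from -0.15 to 0.02, the share of higher among called genes from 56.3% to 70.6%, and Pcsk2 from 2.06 to 2.23.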

How the data were processed

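Sorted Merkel cells and basal keratinocytes gave 9 libraries of total RNA. The authors deposited 1 table of TPM per gene. Trimmomatic, STAR and RSEM on mm10 are named in the submitters' processing notes without version or order; the annotation and strand setting used are not stated there. TPM keeps no depth, so the reads behind a value are unknown and no counting interval is given. Without version suffix 49326 of 49671 Ensembl identifiers matched a symbol in GENCODE M21 (GRCm38, the same build as mm10).

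For each number, log2(TPM + 1) was averaged over its first and second basal library, giving 3 basal values beside 3 Merkel ones. Genes had to reach 1 TPM in 3 of these 6 values. Groups were compared with limma 3.58.1 (R 4.3.3, trended variance, two-sided p), and p-values were adjusted by Benjamini-Hochberg across all tested genes. The procedure was tested on simulated data. Second and first basal libraries were compared in the same way. SDs of basal levels are over the 3 numbers. Tables and plots used Python 3.11.15, pandas 2.3.3 and matplotlib 3.10.9.

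Deviations from the group means correlated between Merkel and averaged basal values of the same number (r = 0.385, 0.357 and 0.202) and between first and second basal libraries (0.474, 0.532 and 0.376). Between unlike numbers r was -0.35 to 0.059 in the former and -0.515 to 0.193 in the latter. Samples of the same number thus varied together, although the labels do not say what they share. The main fit did not use this pairing. Fits with the sample number as a block, other pseudocounts, filters and scalings, single basal sets and each replicate left out were alternatives.

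The 10 genes and the lists were chosen with earlier results of these data known. Named are the 10 genes, up to 3 called genes per list by adjusted p, genes where a count is 5 or fewer, Rest, Furin, Pam, markers that move with a result and the 5 genes most like Chga and Cpe, leaving out predicted genes. Cpd, Npy, Rab27a, Rab27b, Creb1, Atf1, Crem and the genes that overlap or flank the 10 were chosen after their values were seen.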

Additional observations from a re-analysis of the deposited data

How the results depend on the processing

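Across 15 alternatives of the Merkel comparison, 7 of the 10 genes were called higher in each, and 8 where small, structural and mitochondrial RNA genes were removed, the added one being Vgf. Over all tested genes, 1261 of 15264 were called higher with those RNA genes removed. The main fit called 938 of 13822 higher, and the filter at 5 TPM 486 of 9864. Removal and rescaling raised the TPM of Vgf, while the pseudocount and the filter stayed at 1. The replicate block gave 7 as well, with 1719 genes called in all against 1667, and 640 against 586 for second against first basal libraries; it changed no call of the 10 genes. A filter at 5 TPM tested fewer genes and called 935 for Merkel cells and 311 for the basal libraries. Leaving out 1 replicate gave 1601 to 1841 and 332 to 674 genes, the counts without first basal replicate 3 (389) and without second basal replicate 3 (332) lying furthest under 586. Members called between basal libraries numbered 0 in each of 12 alternatives. Levels under about 1 TPM (Vgf, Scg2, Pcsk1n, and most basal values) rest on an unknown number of reads.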

Other observations

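The nearest protein-coding genes on either side of the 10 genes were read from the annotation, a choice made after the data were seen. Of these 20 flanking genes none is itself among the 10, and 14 were tested. By limma 0 were higher and 1 was lower in Merkel cells, beside 6.79% and 5.27% of all tested genes. With only 14 tested, such counts are too small to be read as a difference from those shares. The lower one was Arhgap11a, a gene of dividing cells that lies 2371 bases from Scg5: it was at 6.64, 5.83 and 7.23 TPM in Merkel libraries, with basal libraries between 11.25 and 18.98 TPM (log2 fold change -1.08 ± 0.14, limma adjusted p = 0.0004). On the other side of Scg5, Grem1, a secreted BMP antagonist, was at 0.14, 0.30 and 0.22 TPM in Merkel libraries and at 0.05 or less in basal ones. Some flanking genes differed in either direction short of the fold limit. Msmo1, beside Cpe, was at 0.46 ± 0.13 (limma adjusted p = 0.021). Ell2, beside Pcsk1, was at -0.82 ± 0.11 (limma adjusted p = 0.000513). Ap1s1, which lies 1642 bases from Vgf and encodes a subunit of the clathrin adaptor AP-1, was between 36.07 and 41.62 TPM in Merkel libraries and between 39.72 and 58.86 TPM in basal ones. Lysmd2, 5418 bases from Scg3, was at 15.7 TPM in Merkel and 15.6 in basal libraries on average.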
